A study of Mus musculus with 8 samples.

Results

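Accessible chromatin was compared between a paclitaxel-resistant and a vinorelbine-resistant derivative of PB3, a mouse breast cancer line that the labels give as Er-/Pr-/Her2-. The comparison took the 2 libraries of PB3-PAC-R and the 2 libraries of PB3-VIN-R, 4 of the 8 libraries of the series. Its members were 56072 autosomal consensus regions of 57417 in all, and 14461 autosomal gene loci of 14941. A region is an interval of the deposited consensus list, and a locus is the sum of the regions that lie inside their nearest protein-coding gene or at most 50 kb from it (mm10). A locus value is the accessibility in and near a gene, not its expression. The other 2 lines were PB3-Parental, labelled untreated, and PB3-ERI-R, labelled Erubilin in the treatment field and Eribulin in the protocol. All 4 lines descend from PB3, and nothing in the labels names a further genetic change. The protocol lists 300, 500 and 800 nM of each drug for the generation of what it calls resistant clones. The sources used here do not say how many clones a line holds or whether drug was present at harvest. Whether the 2 libraries of a line were grown separately is not labelled. The p-values rest on the scatter between the libraries of a line, estimated from all 8 libraries of the 4 lines together. That scatter may be technical.

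ATAC-seq inserts sequencing adapters into open DNA with the Tn5 transposase, so the number of tags over a region rises with how accessible it is. It also rises with the number of copies of that DNA, and copy number was not measured here. Paclitaxel binds beta-tubulin inside the microtubule and stabilises the polymer, whereas vinorelbine, a vinca alkaloid, binds at the ends of microtubules and blocks their growth. Both arrest cells in mitosis. Known routes to resistance include export by the transporter P-glycoprotein, encoded in the mouse by Abcb1a and Abcb1b, altered tubulin isotypes or microtubule-associated proteins, loss of cell death signals, and a shift between epithelial and mesenchymal states.

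Some of the regions with the smallest p-values lay at gene starts, and the promoters of 4 of them are printed. Others also lay at the transcription start itself, among them those of Magi1 and Dnajc27, whose promoters were searched but are not printed. Of the 4 printed promoters, that of Zfp882 had a region that passed edgeR's threshold and the other 3 did not. Each covers 250 bases before to 50 after the start (RefSeq, GRCm38.p6). The promoter of Zfp882, a zinc-finger gene, is chr8:71908356-71908655, plus strand. The promoter of Abcb9, a lysosomal peptide transporter of the ABC family, is chr5:124095749-124096048, minus strand. That of Med12l, a paralogue of a Mediator kinase-module subunit, is chr3:59006728-59007027, plus strand. That of Kcnk12, a potassium channel subunit, is chr17:87797945-87798244, minus strand. Capitals mark matches on either strand to 7 short motifs: AP-1 (TGANTCA), ETS (GGAAGT), RUNX (TGTGGT), TEAD (GGAATG), the ZEB and SNAI E-box (CACCTG), SP and KLF (GGGCGG) and CREB (TGACGT).
Zfp882: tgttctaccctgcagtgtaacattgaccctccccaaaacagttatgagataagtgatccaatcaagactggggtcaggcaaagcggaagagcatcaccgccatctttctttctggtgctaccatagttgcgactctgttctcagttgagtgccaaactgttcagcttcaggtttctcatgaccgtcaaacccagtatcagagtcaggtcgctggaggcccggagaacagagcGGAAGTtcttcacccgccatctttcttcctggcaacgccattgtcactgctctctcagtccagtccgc
Abcb9: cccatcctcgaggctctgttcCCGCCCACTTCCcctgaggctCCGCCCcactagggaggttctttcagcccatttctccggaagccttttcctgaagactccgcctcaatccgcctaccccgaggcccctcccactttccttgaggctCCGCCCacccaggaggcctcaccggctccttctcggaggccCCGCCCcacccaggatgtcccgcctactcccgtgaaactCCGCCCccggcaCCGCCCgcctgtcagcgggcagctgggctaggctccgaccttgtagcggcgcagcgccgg
Med12l: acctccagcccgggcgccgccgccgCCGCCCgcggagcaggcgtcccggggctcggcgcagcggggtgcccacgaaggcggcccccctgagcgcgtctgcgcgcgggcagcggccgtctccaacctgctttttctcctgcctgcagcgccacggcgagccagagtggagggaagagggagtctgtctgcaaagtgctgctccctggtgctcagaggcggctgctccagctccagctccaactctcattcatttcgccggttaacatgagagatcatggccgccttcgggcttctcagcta
Kcnk12: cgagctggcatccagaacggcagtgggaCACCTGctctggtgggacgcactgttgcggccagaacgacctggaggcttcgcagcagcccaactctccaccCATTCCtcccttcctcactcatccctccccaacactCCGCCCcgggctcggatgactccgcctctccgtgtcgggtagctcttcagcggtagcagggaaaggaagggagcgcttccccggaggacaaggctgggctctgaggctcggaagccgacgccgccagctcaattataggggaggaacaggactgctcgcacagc

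The estimates at Zfp882 and Abcb9 were higher in PB3-PAC-R, and those at Med12l and Kcnk12 in PB3-VIN-R. The Zfp882 window held 1 ETS match, beginning 18 bases before the start. Abcb9 held 6 SP and KLF matches and 1 ETS match, which touch at the first of them. Med12l held 1 SP and KLF match, and Kcnk12 held 1 match each for TEAD, the E-box and SP and KLF. Of 27025 promoters of the same length, ETS was found in 24.1%, SP and KLF in 35.9%, the E-box in 20.03% and TEAD in 14.6%. RUNX, AP-1 and CREB, which occur in 16.9%, 7.93% and 7.64% of promoters, were not found in these 4. Med12l and Kcnk12 had 30 and 20 CpG dinucleotides, Abcb9 23 and Zfp882 10, against a median of 7.0 over all promoters. Of the searched promoters that are not printed, that of Magi1 held 1 ETS match, 1 RUNX match and 7 CpG. That of Dnajc27 held 2 CREB matches and 22 CpG. A match is a stretch of letters and not a measured binding site.

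The 2 resistant lines had almost the same accessible genome. Counts totalled 15029435 and 13774822 in the PB3-PAC-R libraries and 24052237 and 23206697 in the PB3-VIN-R libraries, so the latter were deeper. Across regions, libraries of different lines correlated at 0.965 to 0.982, against 0.9736 and 0.9774 for the 2 libraries of PB3-PAC-R and PB3-VIN-R. The same libraries correlated with those of PB3-Parental at 0.948 to 0.979, so the likeness was not particular to this pair, and with those of PB3-ERI-R at 0.133 to 0.206. The points share sequencing depth and base composition within a library, and the values are a description. In CPM (counts scaled to library size, with TMM factors), the median log2 difference between the lines, PB3-PAC-R minus PB3-VIN-R, was 0.01 over regions and -0.01 over loci. The central 95% of regions lay between -0.63 and 0.71 and of loci between -0.44 and 0.36.

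Of 56070 autosomal regions tested with edgeR's quasi-likelihood test, 3 were higher in PB3-PAC-R (0.00535%) at a Benjamini-Hochberg adjusted p under 0.05, whereas 0 were higher in PB3-VIN-R (0%). At an unadjusted p under 0.05 there were 2360 regions (4.21%), 1288 with PB3-PAC-R higher and 1072 with PB3-VIN-R higher. DESeq2 called 50 of the 51796 regions to which it gave an adjusted p (0.0965%), 28 with PB3-PAC-R higher and 22 with PB3-VIN-R higher, among them all 3 edgeR calls. Libraries of different lines also share a replicate number of no stated origin. With that number as a block edgeR called 210 regions, 90 with PB3-PAC-R higher and 120 with PB3-VIN-R higher. The 3 calls were among them, but the split of 3 against 0 depended on the model. Both PB3-PAC-R libraries lay above both PB3-VIN-R libraries in 9309 regions (16.6%), and the reverse held in 8087 (14.4%). Of 14461 loci, edgeR called 1 higher in PB3-PAC-R (0.00692%) and 2 higher in PB3-VIN-R (0.0138%), with 561 at an unadjusted p under 0.05 (3.88%). DESeq2 called 24 loci (0.166%), 9 with PB3-PAC-R higher and 15 with PB3-VIN-R higher. The replicate block gave 38 loci, 9 with PB3-PAC-R higher and 29 with PB3-VIN-R higher. Libraries did not overlap in 1864 loci higher in PB3-PAC-R (12.9%) and in 2249 higher in PB3-VIN-R (15.6%). The edgeR calls also depended on the other 2 lines, which share the estimate of the spread. With the 4 libraries of PB3-PAC-R and PB3-VIN-R alone, or without PB3-ERI-R, edgeR called 0 regions and 0 loci.

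The precision of the comparison differed with abundance. The median SE of a log2 difference was 0.25 for regions and 0.14 for loci. The 95% interval of the difference lay within -1 to 1, that is within a doubling either way, for 79.5% of regions. This share was 93.8% in the more accessible part of the regions, above the median level, and 65.2% below it. For loci it was 94.0%. A log2 difference of at least 1 was seen in 1040 regions (593 with PB3-PAC-R higher and 447 with PB3-VIN-R higher) and in 81 loci (22 and 59).

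**Figure D1:**
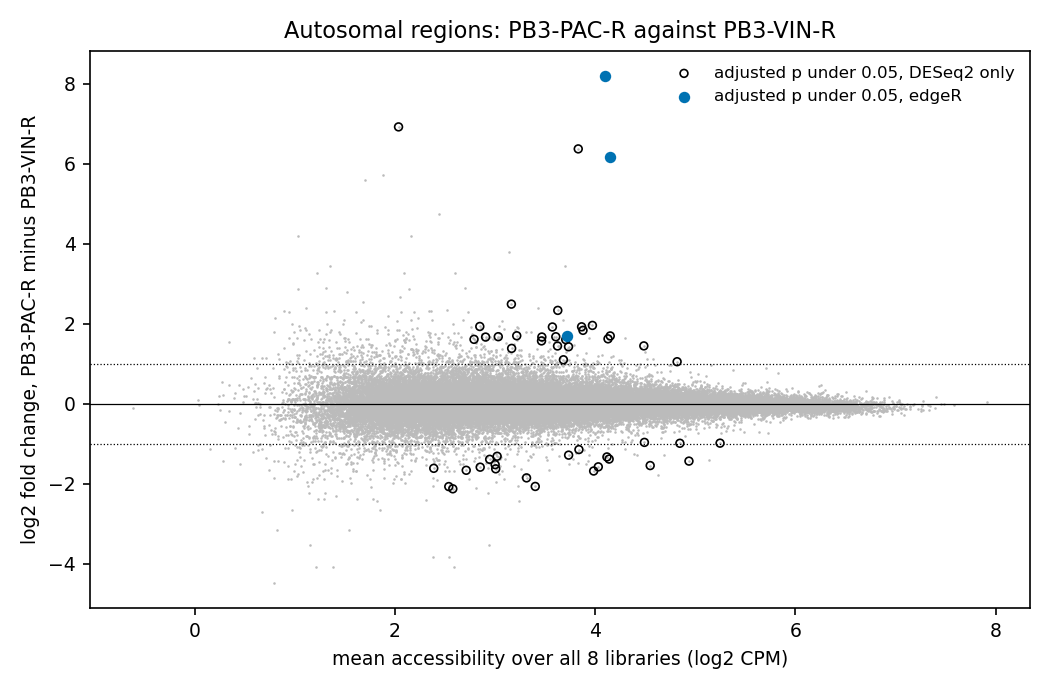
Log2 difference between PB3-PAC-R and PB3-VIN-R against mean accessibility (log2 CPM over all 8 libraries) for the 56070 autosomal regions tested, 1 point each; filled points passed edgeR and open points passed DESeq2 alone, and dotted lines mark a difference of 1. Most regions lie close to 0 (central 95% from -0.63 to 0.71), and the 2 filled points above 6 belong to chromosome 4 near Cdkn2b.

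The largest difference was on chromosome 4, beside Cdkn2a and Cdkn2b, which encode inhibitors of the G1 cyclin-dependent kinases. At chr4:89427797-89428483, 116.8 kb from Cdkn2b, PB3-PAC-R measured 1.98 and 1.99 CPM and PB3-VIN-R 0.0381 and 0 CPM. At chr4:89478727-89479515, 167.7 kb from Cdkn2b, the values were 2.53 and 1.85 CPM against 0 and 0. Both differences passed (edgeR adjusted p = 0.00561 for each). In counts, the first region held 61 against 1, a ratio of 99.5 after scaling to library size (95% exact counting interval 17.2 to 3993). The second held 68 against 0 counts, at least 37.0-fold higher in PB3-PAC-R when a floor of 3 counts over both PB3-VIN-R libraries is used. PB3-Parental measured 2.89 and 1.46 CPM in the first region and 2.71 and 1.66 CPM in the second, so it lay with PB3-PAC-R. PB3-ERI-R was far higher, at 74.7 and 66.7 CPM and at 78.8 and 56.9 CPM. Neither call held without either PB3-VIN-R library (edgeR adjusted p = 0.127 and 0.3004 for the first region, 0.127 and 0.203 for the second, without replicate 1 and 2). Both calls were also lost without PB3-ERI-R (edgeR adjusted p = 0.159 and 0.133) and with the 4 libraries of the 2 lines alone (0.0501 for each). The counts behind the 2 calls are few, and intervals and floors cover counting error alone.

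These 2 regions belong to a run of 21 consecutive consensus regions over 2.25 Mb (chr4:89128152-91376744) that held 2 counts in PB3-VIN-R, a run singled out after its values were seen. It is described in 3 parts, also drawn after seeing the values. On the near side, 3 regions at Mtap, which encodes a methionine salvage enzyme, had 28 parental counts (23 and 5). PB3-PAC-R had 0 there and PB3-VIN-R 1. In the core, 5 regions over 143 kb that are nearest to Mtap (1), Cdkn2a (2) or Cdkn2b (2), the parental line and PB3-VIN-R had 0 counts and PB3-PAC-R had 1, at the region nearest to Mtap. On the far side, 13 regions run from beyond Cdkn2b to the start of Elavl2, a neuronal RNA-binding protein gene. There the parental line had 246 counts (169 and 77), PB3-PAC-R 212 (116 and 96) and PB3-VIN-R 1 (1 and 0). Thus the 2 resistant lines differed on the Elavl2 side of Cdkn2b and were both near 0 on the other. Summed over the 13 regions, PB3-PAC-R was 346 times PB3-VIN-R (exact counting interval 61.4 to 13721, with no test). Counts were seen in 10 of these 13 regions for PB3-PAC-R, 12 for the parental line and 1 for PB3-VIN-R. At the Elavl2 end, chr4:91376389-91376744, PB3-PAC-R held 28 counts and PB3-VIN-R 0, at least 15.2-fold higher in PB3-PAC-R, with an edgeR adjusted p of 0.0968.

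Signal was present in both lines outside this run. The last region before it held 161 PB3-PAC-R counts and 287 PB3-VIN-R counts (5.23 and 5.71 CPM), and the first after it 543 and 850 (17.6 and 16.9 CPM). All 21 regions of the run held counts in PB3-ERI-R, 12741 in total. The loci of Cdkn2a and Cdkn2b themselves stood at 0 CPM in all 4 libraries of PB3-PAC-R and PB3-VIN-R and in both of PB3-Parental, so no fold is given. Counts near 0 do not tell closed chromatin from missing DNA, and whether the DNA of the run was present was not tested.

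**Figure D2:**
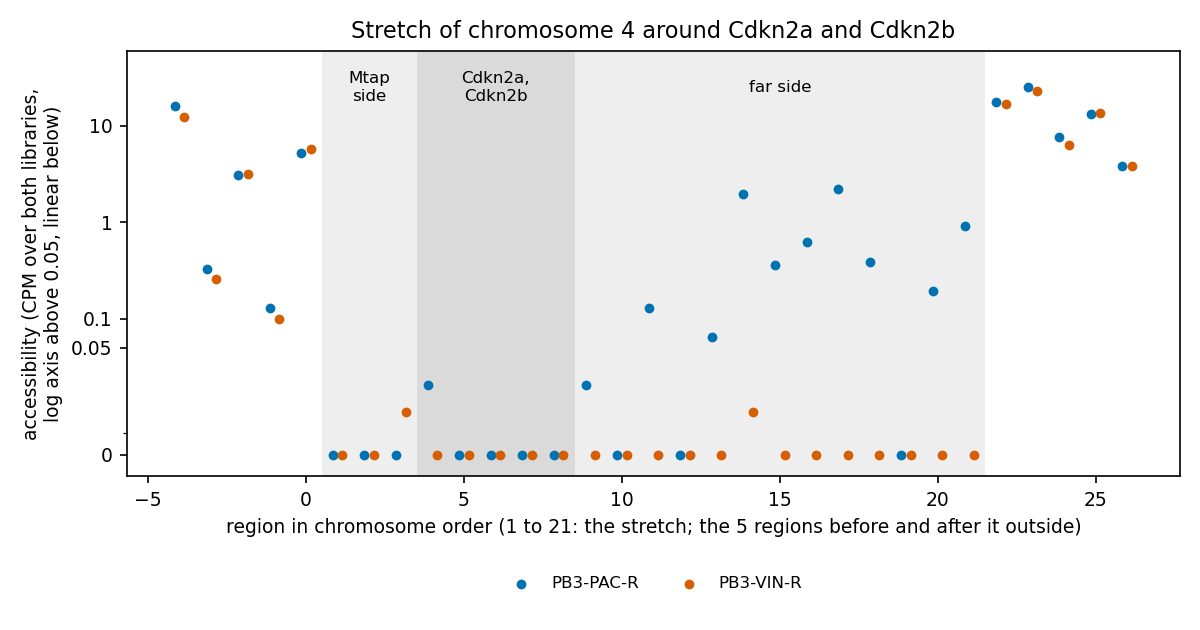
Accessibility (CPM over the 2 libraries of a line; log axis above 0.05, linear below) of the 21 regions of the chromosome 4 run in order, with the 5 regions before and after it; the shaded parts are the Mtap side, Cdkn2a with Cdkn2b, and the side toward Elavl2. PB3-PAC-R rises to about 2 CPM (1.98 and 2.21) on the far side, where PB3-VIN-R stays at 0 but for 1 region, and the lines lie close together outside the run.

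The third region called was the start of Zfp882 (chr8:71908472-71909155), whose promoter is printed above. PB3-PAC-R measured 12.6 and 12.5 CPM and PB3-VIN-R 4.16 and 3.58 CPM. The groups did not overlap, and PB3-PAC-R was 3.23-fold higher (log2 1.69 ± 0.23 SE, edgeR adjusted p = 0.0422). PB3-Parental, at 11.9 and 13.8 CPM, lay with PB3-PAC-R, and PB3-ERI-R was higher at 22.8 and 25.9 CPM. This was the one region of its locus, and as a locus it passed as well (log2 1.69 ± 0.21 SE, edgeR adjusted p = 0.0411). DESeq2 called the region too (adjusted p = 5.44e-06). The edgeR call of the region did not hold when any 1 of the 4 libraries was left out (adjusted p = 0.115 to 0.747, log2 1.56 to 1.81). It was also lost with library size scaling (edgeR adjusted p = 0.0782), loess offsets (0.102), window-median offsets (0.0651), a test against a fold of 1.2 (0.0744), the 4 libraries alone (0.115) and without PB3-ERI-R (0.261).

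Gabrb1 and Kcnmb2 were the 2 autosomal loci that edgeR called higher in PB3-VIN-R. Gabrb1, a subunit of the GABA-A receptor, has 2 regions on chromosome 5 (71694321 to 71955531), both inside the gene. Its locus measured 7.28 and 7.09 CPM in PB3-PAC-R and 22.9 and 25.6 CPM in PB3-VIN-R, 3.37-fold higher in the latter (log2 -1.75 ± 0.21 SE, edgeR adjusted p = 0.0411). PB3-Parental stood at 6.95 and 6.13 CPM and PB3-ERI-R at 1.25 and 1.84 CPM, so PB3-VIN-R was above all 3 other lines. The 2 regions, whose sum is the locus value and so not separate evidence, were both higher in PB3-VIN-R. They measured 1.73 and 1.85 against 5.72 and 8.36 CPM at the one 5.3 kb from the start, and 4.38 and 4.31 against 12.7 and 14.8 CPM at the one deeper in the gene.

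Kcnmb2, an accessory subunit of calcium-activated potassium channels, has 6 regions on chromosome 3 (31871386 to 32214411), 3 inside the gene and 3 outside it. The locus measured 39.4 and 34.0 CPM in PB3-PAC-R and 79.6 and 77.7 CPM in PB3-VIN-R, 2.14-fold higher in the latter (log2 -1.10 ± 0.13 SE, edgeR adjusted p = 0.0411). PB3-Parental, at 36.0 and 34.0 CPM, lay with PB3-PAC-R, and PB3-ERI-R was at 19.9 and 23.1 CPM. All 6 regions were higher in both PB3-VIN-R libraries than in both PB3-PAC-R libraries, by log2 0.56 to 1.67 in size. The same held for 14.4% of all autosomal regions. None of the 6 passed on its own (smallest edgeR adjusted p = 0.153). The locus was picked by the sum of these regions, so their agreement is not separate evidence. DESeq2 called the 3 loci as well. In edgeR none of the 3 held when any 1 of the 4 libraries was left out, with adjusted p-values from 0.0912 to 0.365, while the log2 differences ran from -1.84 to -1.64 for Gabrb1, -1.21 to -0.999 for Kcnmb2 and 1.53 to 1.89 for Zfp882.

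**Figure D3:**
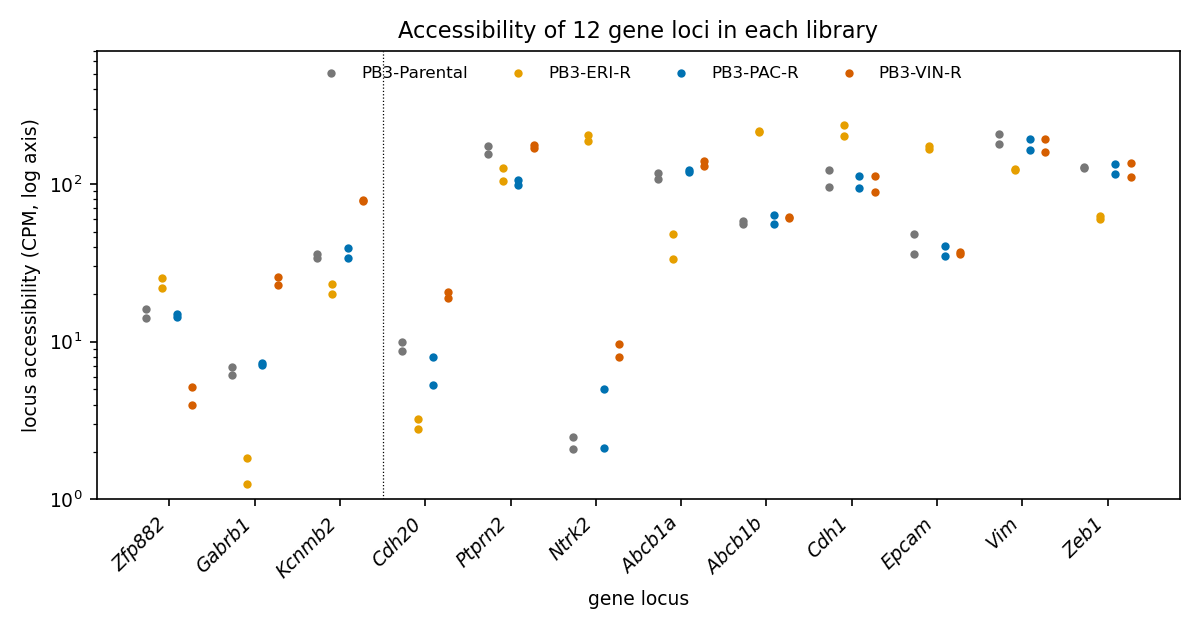
Accessibility of 12 gene loci (CPM, log axis), 1 point per library, coloured by line; the 3 loci left of the dotted line passed edgeR. Zfp882 is lowest in PB3-VIN-R (5.16 and 3.96 CPM), Gabrb1 and Kcnmb2 are highest there, and Abcb1b, Cdh1, Epcam, Vim and Zeb1 overlap between PB3-PAC-R and PB3-VIN-R.

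In all 3 called regions and all 3 called loci the parental mean lay nearer to PB3-PAC-R than to PB3-VIN-R on the log2 scale. These are not 6 separate cases, since Zfp882 is both a region and a locus and 2 regions share the chromosome 4 run. Over all autosomal regions the same was so for 56.2%, and over all loci for 53.5%. The comparison of each derivative with PB3-Parental uses the same parental libraries, and the counts are a description.

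Further regions were chosen after their values were seen, since the rule for named genes left the Zfp882 start alone among regions. They come from the 12 with the smallest p in each direction, not all of which are described. Among those higher in PB3-PAC-R, the start of Magi1, a tight-junction scaffold, measured 6.60 and 6.64 against 1.98 and 1.71 CPM (edgeR adjusted p = 0.0681). The start of Abcb9 measured 10.2 and 17.2 against 3.47 and 3.54 CPM (edgeR adjusted p = 0.0698). A region inside Abtb2, a BTB-domain gene, measured 12.4 and 12.2 against 4.43 and 4.58 CPM (edgeR adjusted p = 0.0783). The other 5 regions of the Abcb9 locus had higher estimates in PB3-PAC-R as well, by log2 0.18 to 0.92, and none passed (smallest edgeR adjusted p = 0.901). In 4 of them the libraries did not overlap, as in 16.6% of all regions with PB3-PAC-R higher. A region inside Reep3, which encodes a protein that clears endoplasmic reticulum from mitotic chromosomes, measured 2.59 and 2.60 against 0.839 and 0.749 CPM (edgeR adjusted p = 0.0951). The starts of Dnajc27, a Rab-like GTPase with a J domain, and Fam111a, a protease of DNA replication, were at 25.3 and 25.8 against 13.6 and 11.03 CPM and at 24.2 and 23.7 against 10.5 and 7.32 CPM. At Magi1, Abcb9, Abtb2, Reep3, Dnajc27 and Fam111a the parental mean lay nearer to PB3-PAC-R.

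Among regions higher in PB3-VIN-R, one 21.1 kb from Cdh20, a type II cadherin gene, measured 1.60 and 1.16 CPM in PB3-PAC-R and 7.36 and 7.07 CPM in PB3-VIN-R (edgeR adjusted p = 0.0632). PB3-Parental was at 2.59 and 1.46 CPM and PB3-ERI-R at 1.95 and 1.11 CPM there. The start of Kcnk12 stood at 3.64 and 2.40 against 13.96 and 12.5 CPM (edgeR adjusted p = 0.0698), with PB3-Parental at 3.31 and 6.32 CPM and PB3-ERI-R below them at 0.650 and 0.664 CPM. In these 2 regions PB3-VIN-R was the highest of the 4 lines. At Med12l and Ngfr the parental line lay nearer to PB3-VIN-R. The start of Med12l measured 5.18 and 3.49 against 11.1 and 14.3 CPM, with PB3-Parental at 11.2 and 12.6 CPM. A region 3.7 kb from Ngfr, the low-affinity neurotrophin receptor gene, measured 2.35 and 2.81 against 11.5 and 10.1 CPM, with PB3-Parental at 8.55 and 4.73 CPM. At the start of C130074G19Rik both derivatives lay below the parental line: 0.988 and 1.03 CPM in PB3-PAC-R, 4.08 and 3.20 CPM for PB3-VIN-R, and 13.7 and 14.7 in PB3-Parental. None of these passed edgeR's threshold. DESeq2 gave the Cdh20 region no adjusted p and called those of Magi1, Abcb9, Abtb2, Reep3, Dnajc27, Fam111a, Kcnk12, Med12l, Ngfr and C130074G19Rik.

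Loci of several regions showed the same mix of orders relative to the parental line. Cdh20, with 2 regions, measured 7.95 and 5.28 CPM in PB3-PAC-R and 20.8 and 18.9 CPM in PB3-VIN-R (log2 -1.58 ± 0.24 SE, edgeR adjusted p = 0.115). PB3-Parental, at 9.96 and 8.77 CPM, lay nearer to PB3-PAC-R. Ptprn2, a receptor-type phosphatase of secretory vesicles with 14 regions, measured 106 and 98.7 against 177 and 169 CPM (log2 -0.76 ± 0.12 SE, edgeR adjusted p = 0.115). Here PB3-Parental, at 174 and 155 CPM, lay with PB3-VIN-R, so PB3-PAC-R was the lower line. Atp8a1, a phospholipid flippase gene, measured 18.1 and 17.8 against 30.9 and 39.0 CPM, with PB3-Parental at 37.1 and 34.9 CPM. Adamts3, a procollagen protease gene with 7 regions, measured 6.92 and 5.04 against 13.2 and 21.9 CPM. Among loci higher in PB3-PAC-R, Lmo1, a LIM-domain cofactor gene with 7 regions, measured 115 and 113 against 82.8 and 74.6 CPM (edgeR adjusted p = 0.289). Ppfibp2, a liprin-beta gene with 6 regions, measured 20.7 and 17.2 against 11.4 and 6.81 CPM, with PB3-Parental above both lines. DESeq2 called these 6 loci, and edgeR called none of them. The rule for named genes took 10 loci in each direction, and not all of those are described here.

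Regions with large differences were mostly weak ones. Of the 1040 with a log2 difference of at least 1, 522 were higher and 395 lower in PB3-PAC-R without overlap of libraries. Their median level over both lines was 0.555 and 1.17 CPM, against 10.3 CPM for all autosomal regions. In PB3-Parental their median was 0.605 and 0.862 CPM (10.5 for all), and in PB3-ERI-R 20.3 and 11.5 CPM (11.8 for all). Gene ends, within 1 kb, held 3.64% and 8.10% of them, against 21.45% of all regions. More than 50 kb from any protein-coding gene lay 31.4% and 27.3% of them, against 15.9%. The parental mean was nearer to PB3-PAC-R in 64.6% of the regions higher there and in 52.7% of those higher in PB3-VIN-R. Regions with a peak in neither PB3-PAC-R nor PB3-VIN-R made up 18.4% of autosomal regions. They held 843 of the 1040 and 2 of the regions that edgeR called. Of these 10341 regions without a peak in either line, 9600 had a PB3-ERI-R peak. Low levels have wide intervals, so these shares describe where the largest estimates fell.

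Genes of the drug target did not differ past the threshold. Of 27 gene lists with 705 entries, 591 autosomal loci were tested and 0 were called by edgeR (smallest adjusted p = 0.324). Among all 14461 loci it called 3, so 0 among 591 does not set the listed genes apart. At an unadjusted p under 0.05 there were 21 of the 591 (3.55%), against 3.88% of all loci. DESeq2 called 2 of the 591, Ntrk2 and Krt7, against 24 of all loci (0.166%). The interval of the difference lay within -1 to 1 for 563 of the 591. The 17 tubulin loci had a median log2 difference of 0.04, and the median over all loci was -0.01. Tubb3, the neuronal beta-tubulin isotype, measured 24.9 and 20.3 CPM in PB3-PAC-R and 26.7 and 23.8 CPM in PB3-VIN-R (log2 -0.16, 95% interval -0.53 to 0.20). Tubb5, a main beta-tubulin of dividing cells, was at 55.1 and 51.7 against 51.3 and 48.4 CPM (interval -0.14 to 0.34). In both genes a change of more than 1.5 times lies outside the interval.

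The 39 loci of microtubule-binding and modifying proteins had a median of -0.04, with 28 below 0 and 11 above (7685 of 14461 loci, or 53.1%, were below 0 in all), and 0 at an unadjusted p under 0.05. Libraries did not overlap in 9 of them higher in PB3-VIN-R (15.6% of all loci) and 1 higher in PB3-PAC-R (12.9% of all loci). Stmn1, which destabilises microtubules, measured 98.3 and 97.9 against 105 and 101 CPM. Mapt, which binds along the microtubule, measured 95.4 and 84.4 against 117 and 91.4 CPM, with overlapping libraries. Among 31 kinesin and dynein loci the median was -0.01. The lowest was Kif18a, which controls chromosome alignment, at 0.221 and 0.236 against 0.426 and 0.552 CPM, near the limit of detection in both lines. The 36 loci of mitotic spindle and checkpoint genes had a median of -0.01 and 0 at an unadjusted p under 0.05. Mad2l1, a spindle checkpoint protein, stood at 79.3 and 85.2 against 69.1 and 76.5 CPM.

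P-glycoprotein loci differed little between the lines. Abcb1a measured 120 and 123 CPM in PB3-PAC-R and 139 and 130 CPM in PB3-VIN-R (log2 -0.15 ± 0.14 SE, interval -0.46 to 0.16), with both PB3-VIN-R libraries above. Abcb1b measured 63.2 and 56.1 against 61.5 and 60.7 CPM (log2 -0.03 ± 0.10 SE, interval -0.25 to 0.18). PB3-Parental stood at 108 and 118 CPM for Abcb1a and at 57.9 and 56.2 CPM for Abcb1b. The 32 efflux and detoxification loci had a median of -0.02, with 2 at an unadjusted p under 0.05 (6.25%, against 3.88% of all loci). One of these was Abcc4, a transporter of cyclic nucleotides and drugs, at 250.002 and 253 against 208 and 199 CPM (log2 0.30, edgeR adjusted p = 0.881). Abcc4 lies on chromosome 14 between 110 and 120 Mb, where the median of all 73 regions was 0.20. The Abcc4 locus itself has 12 regions, and what its surroundings contributed was not tested. The other was Slco1a1, an uptake transporter, at 8.17 and 3.47 against 12.4 and 8.65 CPM. Among 28 apoptosis regulators, Bik, a BH3-only killer protein, was at 10.2 and 8.12 against 6.48 and 5.56 CPM, and Casp6, an effector caspase, at 56.5 and 50.8 against 66.8 and 68.5 CPM. Bcl2l1 and Mcl1, which block cell death, had log2 differences of -0.02 and 0.01. The list of cell cycle inhibitors and G1 cyclins, 22 loci with a median of 0.02, holds Cdkn2a and Cdkn2b at 0 in both lines.

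No epithelial or mesenchymal list locus passed edgeR. Cdh1 (E-cadherin) measured 113 and 94.0 CPM in PB3-PAC-R and 113 and 88.5 CPM in PB3-VIN-R (log2 0.04 ± 0.16 SE). Epcam measured 35.2 and 40.4 against 36.1 and 37.3 CPM (log2 0.04 ± 0.14 SE). Vim, the mesenchymal intermediate filament, measured 192 and 164 against 193 and 160 CPM (log2 0.01 ± 0.13 SE), and Zeb1, a repressor of epithelial genes, 133 and 116 against 135 and 110 CPM (log2 0.02 ± 0.12 SE). For these 4 loci the libraries overlapped and the 95% intervals lay within -0.32 and 0.40. The list medians were -0.03 for 40 epithelial adhesion and keratin loci, -0.09 for 19 epithelial transcription and splicing factors, -0.01 for 19 EMT factors and 0.05 for 33 mesenchymal and matrix loci. Of the 19 epithelial factors 14 were below 0, where 53.1% of all loci lay. Of these, Ovol2, Spdef and Tfap2c had an unadjusted p under 0.05, as did 3.88% of all loci, and none passed edgeR. Ovol2 stood at 0.883 and 0.867 against 1.70 and 2.25 CPM, Spdef at 4.41 and 4.26 against 8.90 and 6.30, and Tfap2c at 14.7 and 13.4 against 16.7 and 21.7. Krt7, a simple-epithelium keratin with 1 region, stood at 5.00 and 1.97 against 14.4 and 6.81 CPM (log2 -1.59, edgeR adjusted p = 0.714, DESeq2 adjusted p = 0.0437). Its libraries did not overlap between the lines and varied more than 2-fold within each.

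The smallest p-values of the lists were those of Ntrk2 and Pax6. Ntrk2, the BDNF receptor TrkB, has 8 regions and measured 5.00 and 2.13 CPM in PB3-PAC-R against 7.95 and 9.70 CPM in PB3-VIN-R (log2 -1.29 ± 0.28 SE, edgeR adjusted p = 0.324, DESeq2 adjusted p = 0.000927). PB3-Parental was at 2.51 and 2.10 CPM. Pax6, a transcription factor of neural and eye development, was at 1.47 and 1.34 against 5.25 and 2.99 CPM, below PB3-Parental at 14.4 and 17.1 CPM. Its list of 12 neural markers had the lowest median, -0.17, with 9 loci below 0. Among 47 Wnt pathway loci, 6 had an unadjusted p under 0.05 (12.8%, against 3.88% of all loci), 3 in each direction. Of those higher in PB3-PAC-R, Tcf7l1 lies on chromosome 6 between 70 and 80 Mb, where the median of all regions was 0.22. Wnt10b lies on chromosome 15 between 90 and 100 Mb, where it was 0.10. Lgr5, a receptor for R-spondins, was at 20.4 and 18.6 against 28.7 and 29.1 CPM, and Lef1, a nuclear effector, at 10.8 and 9.46 against 6.86 and 6.58 CPM. Of 47 receptor tyrosine kinases and ligands, 3 had an unadjusted p under 0.05 (6.38%): Ntrk2, Erbb4 (17.7 and 14.7 against 25.6 and 21.6 CPM) and Met (232 and 284 against 209 and 200 CPM). Bmp2, a ligand, was the 1 of 36 TGF-beta pathway loci at an unadjusted p under 0.05 (log2 -0.37), and the median of that list was -0.04. No locus reached that level among 20 AP-1, 21 RUNX, TEAD and Hippo, 25 SWI/SNF, 20 interferon response and 15 housekeeping loci, whose medians were -0.06, -0.01, 0.06, -0.01 and -0.01. The summed levels of the 8 marker lists for other cell types or mammary lineages overlapped between the lines in each case, for example 777 and 747 against 821 and 701 CPM for mammary basal and 413 and 426 against 461 and 404 CPM for macrophage markers.

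**Figure D4:**
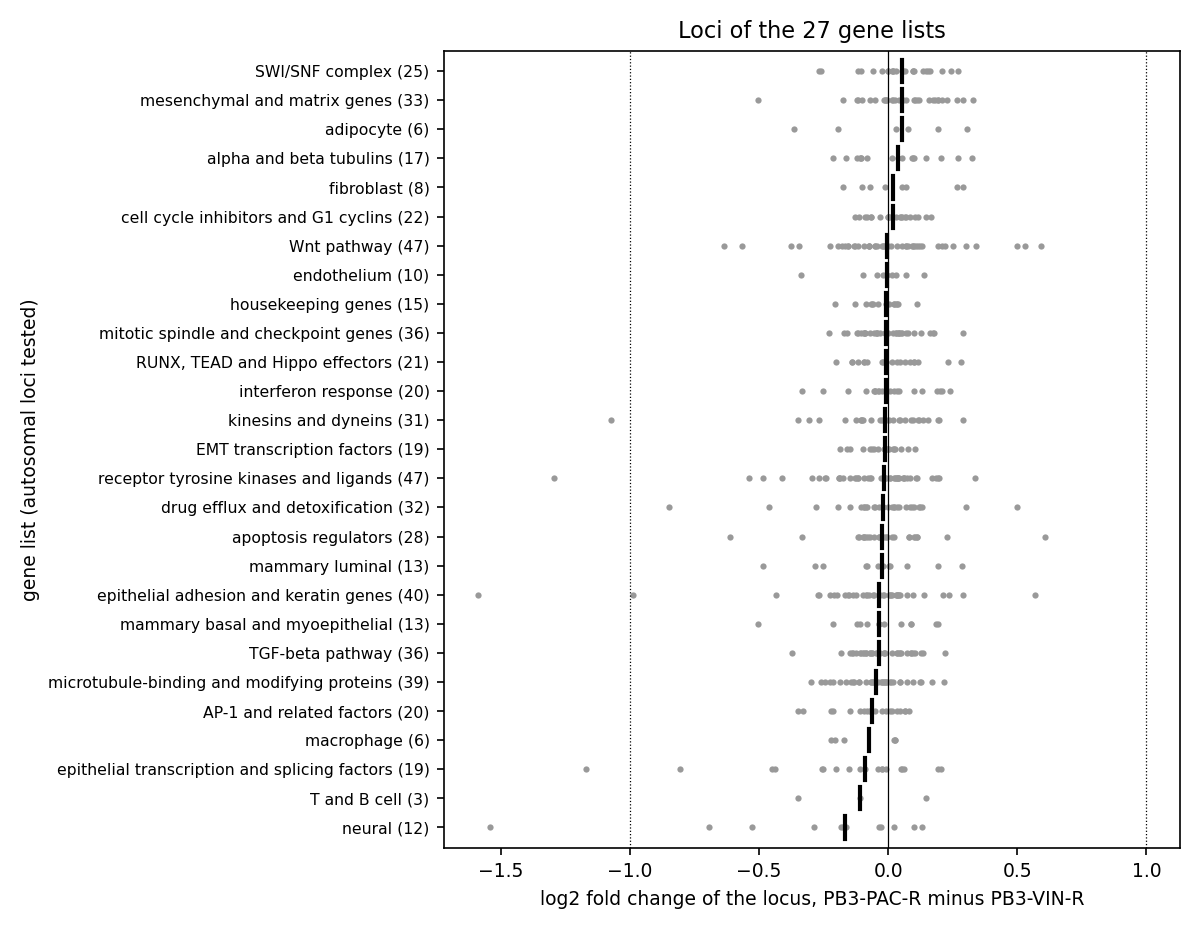
Log2 difference between PB3-PAC-R and PB3-VIN-R for each autosomal locus of 27 gene lists (grey points) with the list's median (black bar); the number of loci tested stands beside each list, and dotted lines mark a difference of 1. The medians run from -0.17 for neural markers to 0.06 for the SWI/SNF complex, and 25 of 27 lie within 0.1 of 0.

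The peak lists, which the authors deposited as 1 list per line, overlapped in an uneven way. Of 38635 autosomal PB3-PAC-R peaks, 96.13% overlapped a PB3-VIN-R peak by at least 1 bp (95% exact binomial interval 95.93 to 96.32). Of 44407 PB3-VIN-R peaks, 82.33% overlapped a PB3-PAC-R peak (81.97 to 82.68). The intervals treat peaks as independent and hold no spread between libraries or cultures, which 1 list per line cannot give. The 7809 regions with a peak in PB3-VIN-R and none in PB3-PAC-R had a median log2 difference of -0.13, and 5530 of them were below 0. The 1489 regions with the reverse had a median of 0.30, and 1332 were above 0. These regions were weak: their median level was 5.25 CPM in PB3-PAC-R and 5.87 CPM in PB3-VIN-R for the former, against 17.5 and 17.3 CPM where both lines had a peak. In the former edgeR called 0 regions, with 533 at an unadjusted p under 0.05 (6.83%). In the latter it called 1, with 196 at that level (13.2%), against 4.21% of all regions. Peaks and counts come from the same reads, so these values describe the lists. The libraries with more peaks also had more counts, and what depth contributed was not tested.

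Several chromosomes differed slightly along their length. Copy number and accessibility cannot be told apart in a shift that a whole segment shares. Over 253 windows of 10 Mb with at least 20 regions each, the median difference was at least 0.1 in size in 34, with 24 higher in PB3-PAC-R and 10 higher in PB3-VIN-R. Of the 24, 11 lay on chromosome 6, 9 on chromosome 15 and 2 on chromosome 14. Of the 10, 6 lay on chromosome 1 and 3 on chromosome 11. On chromosome 6 the 11 windows from 0 to 110 Mb had medians of 0.13 to 0.36 and the 4 windows from 110 to 150 Mb medians of -0.08 to -0.02. Relative to PB3-Parental, the first 11 were higher in PB3-PAC-R (0.05 to 0.18) and lower in PB3-VIN-R (-0.18 to -0.02), whereas the last 4 were higher in both (0.24 to 0.25 and 0.26 to 0.31). On chromosome 15 all 11 windows had medians above 0 (0.05 to 0.18), but the size depended on 1 library. The chromosome's median was 0.17 and 0.18 in the pairings with PB3-PAC-R replicate 1 and 0.03 and 0.04 in those with replicate 2, and 7 of the 11 windows were above 0 in all 4 pairings. On chromosome 6 the corresponding medians were 0.08 and 0.06 with replicate 1 and 0.16 and 0.14 with replicate 2, and the 11 windows up to 110 Mb were above 0 in all 4. On chromosome 11 all 13 windows had medians below 0, 12 of them in all 4 pairings. On chromosome 1 this held for 19 of 20 windows, 12 of them in all pairings.

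The window with the largest median was chromosome 6, 10 to 20 Mb, at 0.36, and it lay between 0.13 and 0.49 in the 4 pairings of libraries. Next came chromosome 14, 120 to 130 Mb, at 0.31 (0.25 to 0.32), where PB3-PAC-R was at -0.17 and PB3-VIN-R at -0.47 relative to PB3-Parental. The lowest windows were chromosome 1, 0 to 10 Mb, and chromosome 11, 30 to 40 Mb, each at -0.16. At gene ends the median of chromosome 14 as a whole was -0.03 in place of 0.03. Met lies in the highest window, and with each window's median taken out of each library the log2 difference of the locus Met was -0.01 in place of 0.34. The locus Tcf7l1, a Wnt effector on chromosome 6, went from 0.34 to 0.09. For Gabrb1, Kcnmb2 and Zfp882 that correction moved the log2 difference to -1.73, -1.05 and 1.68, and the edgeR adjusted p to 0.0504 for each.

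**Figure D5:**
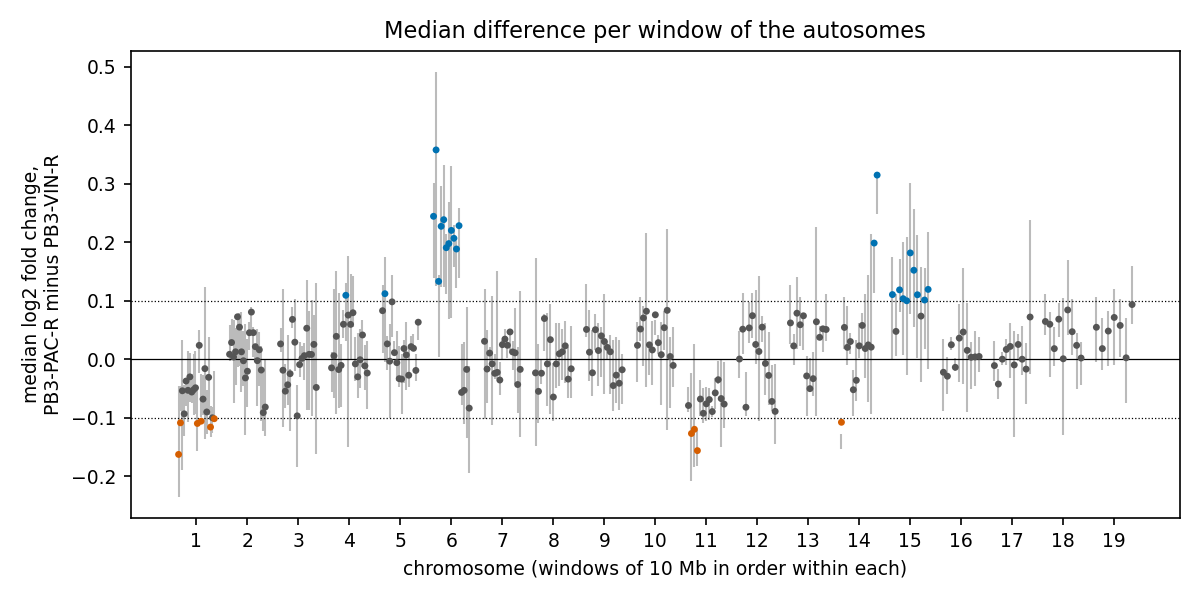
Median log2 difference between PB3-PAC-R and PB3-VIN-R in each 10 Mb window of the autosomes (points, in order within each chromosome), with the range of the medians in the 4 pairings of libraries (grey lines); coloured points are at least 0.1 in size, marked by dotted lines. Chromosome 6 steps from medians of 0.13 to 0.36 down to below 0 in its last 4 windows, the medians of chromosome 15 lie above 0 and those of chromosome 11 below, while the lines of 4 windows on chromosome 15 and 1 on chromosome 11 reach across 0.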

How the data were processed

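Per the labels' protocols, nuclei were tagmented and sequenced as paired ends. Tools named in the submitters' processing notes are MACS2 2.1.1, Bowtie2 2.2.6, cutadapt 1.9.1, bcl2fastq 2.20.0.422, deepTools, featureCounts and Picard, and the builds are GRCm38 and mm10. The sources used here give no settings and do not say if single reads or pairs were counted. The authors deposited raw counts for each consensus region in each library. Their deposited peaks, in a list for each line, carry a score, a fold enrichment ratio and -log10 q value. Other deposited values are the starts and ends of regions and peaks.

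In edgeR 4.0.16 (R 4.3.3), counts passed filterByExpr, were scaled by TMM, and all 8 libraries entered a quasi-likelihood fit in which each line was a term. The fit had 4 residual degrees of freedom, with 9.91 prior ones for regions and 6.28 for loci, and a biological coefficient of variation of 0.161 and 0.112. P-values were adjusted over all 57415 regions or 14941 loci tested, and autosomal results are given. A floor of 3 counts is 0.114 to 0.205 CPM in a library of these lines. The 2 libraries of a line were not duplicates: their chi-square over its degrees of freedom was 5.15 (PB3-PAC-R) or 10.2 (PB3-VIN-R). CPM differs slightly between regions and loci, whose library sizes differ.

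The rule for named genes took called regions with a log2 CPM of at least 2 and a gene within 50 kb, the 10 loci in each direction with the smallest adjusted p among those of at least 2 regions without overlap, up to 3 loci per gene list, the 3 highest and 3 lowest windows and 8 genes whatever their values. Regions, other list loci and the chromosome 4 run were named after their values were seen. Members and lists were chosen with earlier results of these data known. Alternatives were DESeq2 1.42.0, other scalings, filters, sets of libraries and region assignments.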

Additional observations from a re-analysis of the deposited data

Results flagged for a closer look

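Chromosome X lies outside the comparison of autosomes, and signal differed between the lines there. The median log2 difference, PB3-PAC-R minus PB3-VIN-R, was -0.51 in the window from 40 to 50 Mb, -0.47 from 50 to 60 Mb and -0.41 from 30 to 40 Mb. The locus F8, a clotting factor gene, was higher in PB3-PAC-R (log2 2.59, 2.43 and 2.99 against 0.473 and 0.414 CPM, edgeR adjusted p = 0.0411), and its one region likewise (log2 2.59, edgeR adjusted p = 0.0422). The locus Hs6st2, a heparan sulfate sulfotransferase gene, was higher in PB3-VIN-R (log2 -1.54, 9.71 and 9.46 against 28.0 and 27.9 CPM, edgeR adjusted p = 0.0475), and 1 of its regions likewise (log2 -2.75, edgeR adjusted p = 0.00561).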

How the results depend on the processing

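The 3 called regions and 3 called loci kept their direction in each alternative that gave a value, and the number of calls moved. DESeq2 called 50 regions and 24 loci. With the 4 libraries of these lines alone edgeR called 0 regions and 0 loci (2398 and 506 at an unadjusted p under 0.05), and without PB3-ERI-R 0 and 0 (2116 and 541). Leaving out 1 library gave 0 to 4 regions and 0 to 0 loci, with 0 regions when either PB3-VIN-R library was the one left out (2677 and 2094 at an unadjusted p under 0.05). For loci, window-median offsets gave 0 calls (403 at an unadjusted p under 0.05) and a test against a fold of 1.2 gave 0 (216). Library size scaling, loess offsets and no filter gave 2 to 3 regions and 3 to 4 loci, and the region lost under both of the former was Zfp882. Genes within 10 kb gave 2 loci, without Kcnmb2 (log2 -0.79, edgeR adjusted p = 0.242), and gene ends gave 3 loci, 1 of them shared. With at least 50% of a peak overlapped, 80.9% of PB3-VIN-R peaks were shared. The libraries share a replicate number with no stated origin. With that number as a replicate block edgeR called 210 regions (90 higher in PB3-PAC-R) and 38 loci (9), all 3 regions and 3 loci among them. Deviations of same-numbered libraries correlated at 0.446, and each library of the 2 lines correlated best with the same-numbered library of the other line (0.9816 and 0.9776). With 2 libraries a line, small differences in weak regions were not detectable.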
